A study of Mus musculus with 6 samples.

Results

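The cytosolic ribosomal proteins are the protein part of the 60S and 40S ribosomal subunits, and their mRNAs were followed here in 2 populations of immune cells from the muscle wall of the gut. Members were chosen by symbol alone: Rpl or Rps with a number and at most 1 further letter and 1 further digit, or Rpsa, Rplp0, Rplp1 and Rplp2, without the -ps symbols and the Rps6k kinases. A mean normalized value of at least 10 over the 6 libraries was also required. Of the 84 symbols that matched, 82 passed and Rps3a2 and Rps3a3 lay under the minimum, so the members are 82 of 17812 genes tested and of 26110 genes listed. 48 members belong to the 60S and 34 to the 40S subunit. 77 are the standard genes of the family and 5 are paralogs, namely Rpl7l1, Rpl22l1, Rps27l, Rps4l and Rps12l1.

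MHCIIhi CX3CR1- and MHCIIhi CX3CR1+ cells were sorted from the small bowel muscularis externa (ME) of untreated, naive CX3CR1 GFP/+ mice, in which GFP is expressed from one Cx3cr1 allele, and 3 libraries of each population were measured by bulk RNA-seq. All 6 libraries therefore carry the GFP allele, and the sort split the cells by CX3CR1 itself, whose gene drives GFP. The labels call the sorted cells dendritic cells, while the study treats them as ME macrophages. Muscle wall from several mice was pooled, but the age of the mice, and how the pools relate to the libraries, are not given in the sources used here, and the p-values thus measure the spread between libraries, which may be technical.

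Each ribosome is built from one copy of nearly every one of these proteins, and the genes are expressed together in nearly all cells. Their mRNAs carry a 5′ terminal oligopyrimidine (TOP) motif, a cytosine at the start followed by a run of pyrimidines, through which mTORC1 sets their translation. In macrophages and dendritic cells, activation is known to change translation strongly, while a fall in the supply of single ribosomal proteins leaves unassembled partners that stabilise p53.

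RefSeq promoters (GRCm38.p6) were searched for runs of pyrimidines near the annotated start, and 6 are shown because they belong to the members on which the results below turn. Each line gives 30 bases before the annotated start and 30 from the start on, 5′ to 3′ on the strand of the gene, and capitals mark the longest unbroken run of C and T in this window. Rpsa (chr9:120127736-120127795, plus strand) and Rpl14 (chr9:120571487-120571546, plus strand) passed the test between the populations. Rps6 (chr4:86857338-86857397, minus strand) is a well-known TOP mRNA. Rps27 (chr3:90213619-90213678, minus strand) and Rps27l (chr9:66946056-66946115, plus strand, the first of 2 starts listed) are a parent and its paralog, and Rpl22l1 (chr3:28805478-28805537, plus strand) is the paralog of Rpl22.
Rpsa: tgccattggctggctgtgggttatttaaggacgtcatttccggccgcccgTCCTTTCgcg
Rpl14: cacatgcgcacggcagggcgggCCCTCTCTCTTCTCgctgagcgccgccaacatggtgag
Rps6: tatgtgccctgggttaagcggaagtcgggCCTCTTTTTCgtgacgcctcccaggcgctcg
Rps27: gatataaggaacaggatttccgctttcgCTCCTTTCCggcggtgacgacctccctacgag
Rps27l: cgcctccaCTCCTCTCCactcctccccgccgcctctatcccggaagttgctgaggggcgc
Rpl22l1: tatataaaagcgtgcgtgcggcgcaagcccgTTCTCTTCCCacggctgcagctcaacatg
The annotated start of Rpl14, Rps6 and Rps27 is a C inside the run, as in a TOP motif, whereas that of Rpsa is an A and those of Rps27l and Rpl22l1 are a G outside it. The run spans 9 bases in Rps27 as in Rps27l, but begins 2 bases before the annotated start in Rps27 and 22 bases before it in Rps27l.

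Of the 82 members, 60 had a RefSeq promoter, and 9 of them had more than 1, giving 71 promoters. A run of at least 8 pyrimidines within 30 bases of the start was present in 50.7% of the members' promoters and in 22.9% of all 32851 promoters. The annotated start itself was a C in 22 of the 71 promoters of members, and in 16.3% of all promoters. An unbroken run of at least 5 pyrimidines from the annotated start on was present in 16 of the 71 (22.5%), against 4.44% of all. Over the whole promoter of 250 bases before and 50 after the start, and on either strand, CCGGAAG, the core of sites for ETS factors, was found in 36.6% of the members' promoters and 8.86% of all. AAGATGGC, the core of YY1 sites, was found in 11.3% against 2.75%, and CTTTCC in 49.3% against 26.6%. In 75 promoters of mitochondrial ribosomal protein genes, CCGGAAG was found in 34.7%, AAGATGGC in 16% and CTTTCC in 33.3%. In 17 promoters of other genes with TOP mRNAs the shares were 23.5%, 29.4% and 35.3%. CCGGAAG and AAGATGGC were thus not particular to the members. None of these 3 motifs contains another, and a match is a description of letters in this window only.

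The deposited values rest on approximately 5346379 to 17616748 reads per library, and 3 reads correspond to a normalized value of 1.39 to 5.36, so that every member lay far above the counting floor except Rps4l at 5.09 to 18.4. Mitochondrially encoded transcripts made up 51.7% ± 3.76 of the normalized total in CX3CR1- and 19.6% ± 1.55 in CX3CR1+ libraries (SD, n = 3 each). All 10 macrophage markers examined were lower and 8 of 9 dendritic cell markers were higher in CX3CR1- cells (limma, adjusted p of at most 0.05). The macrophage markers include Cx3cr1, the gene behind the sort, whose direction the sort itself set. The 10 enterocyte markers summed to 17519 to 32238 in CX3CR1- and to at most 43.8 in CX3CR1+ libraries, where Lct, Apoa4, Krt20, Fabp1 and Alpi were at or under 3 reads in every library, and the 8 fibroblast markers summed to 5380 to 16411 against 222 to 374. B and plasma cell markers summed to 1889 to 4592 in CX3CR1- against 482 to 556 in CX3CR1+ libraries. Crypt and proliferating epithelium markers summed to 567 to 1769 against 217 to 277, and glia and neuron markers to 146 to 498 against 88.4 to 99.0. T cell markers went the other way, at 405 to 447 against 592 to 677, while smooth muscle and proliferation markers overlapped. Apart from the overlapping ones, these sums moved with the populations. The part of all these sums in the values of the members was not tested. In bulk samples, fewer cells of a type and less RNA per cell cannot be told apart.

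On the deposited scale, ribosomal protein mRNAs differed little between the populations. Of the 82, Rpsa and Rpl14 passed the test, both higher in CX3CR1- cells, and no member changed 2-fold. The number called depended on the scale, with 7 for equal totals without mitochondrial genes (24.1% of all genes) and 29 after quantile normalization (22.6% of all genes). The test was limma on log2(value + 1) across all genes with Benjamini-Hochberg adjustment, and a gene was called at an adjusted p of at most 0.05. Thus 2 of 82 members (2.44%) were called, against 24.3% of all genes, of which 13.3% were called higher and 11.0% lower. With a 2-fold change required as well, 0 members and 20.4% of all genes were called, and 6 of 82 members had an unadjusted p of at most 0.05 in limma, against 35.4% of all genes. The fold changes of the members ranged from -0.72 (Rps4l) to 0.72 (Rpsa) on the log2 scale, with a median of 0.09 beside -0.003 over all genes.

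On the deposited scale, the members were also measured precisely enough to bound a difference. In 78 of 82 members the 95% interval of the fold change lay inside a 2-fold change in both directions, which held for 23.5% of all genes. The 4 members with a wider interval were Rpsa, Rpl22l1, Rpl7l1 and Rps4l. The interval lay inside 2-fold in 75 members with equal totals without mitochondrial genes and in 67 after quantile normalization. It did so in 72 without an intensity trend in the variance, and in 71 to 78 with 1 library left out. The 5th to 95th percentile range of the members' means was 271 to 2851. Among 3228 other genes in that range the interval lay inside 2-fold in 49.6%, and 40.0% of those genes were called. Those genes had a median log2 fold change of -0.28, with 362 called higher and 929 called lower. All 3 libraries of one population lay above all 3 of the other in 13 of 82 members, 9 higher and 4 lower in CX3CR1- cells, against 40.0% of all genes.

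**Figure D1:**
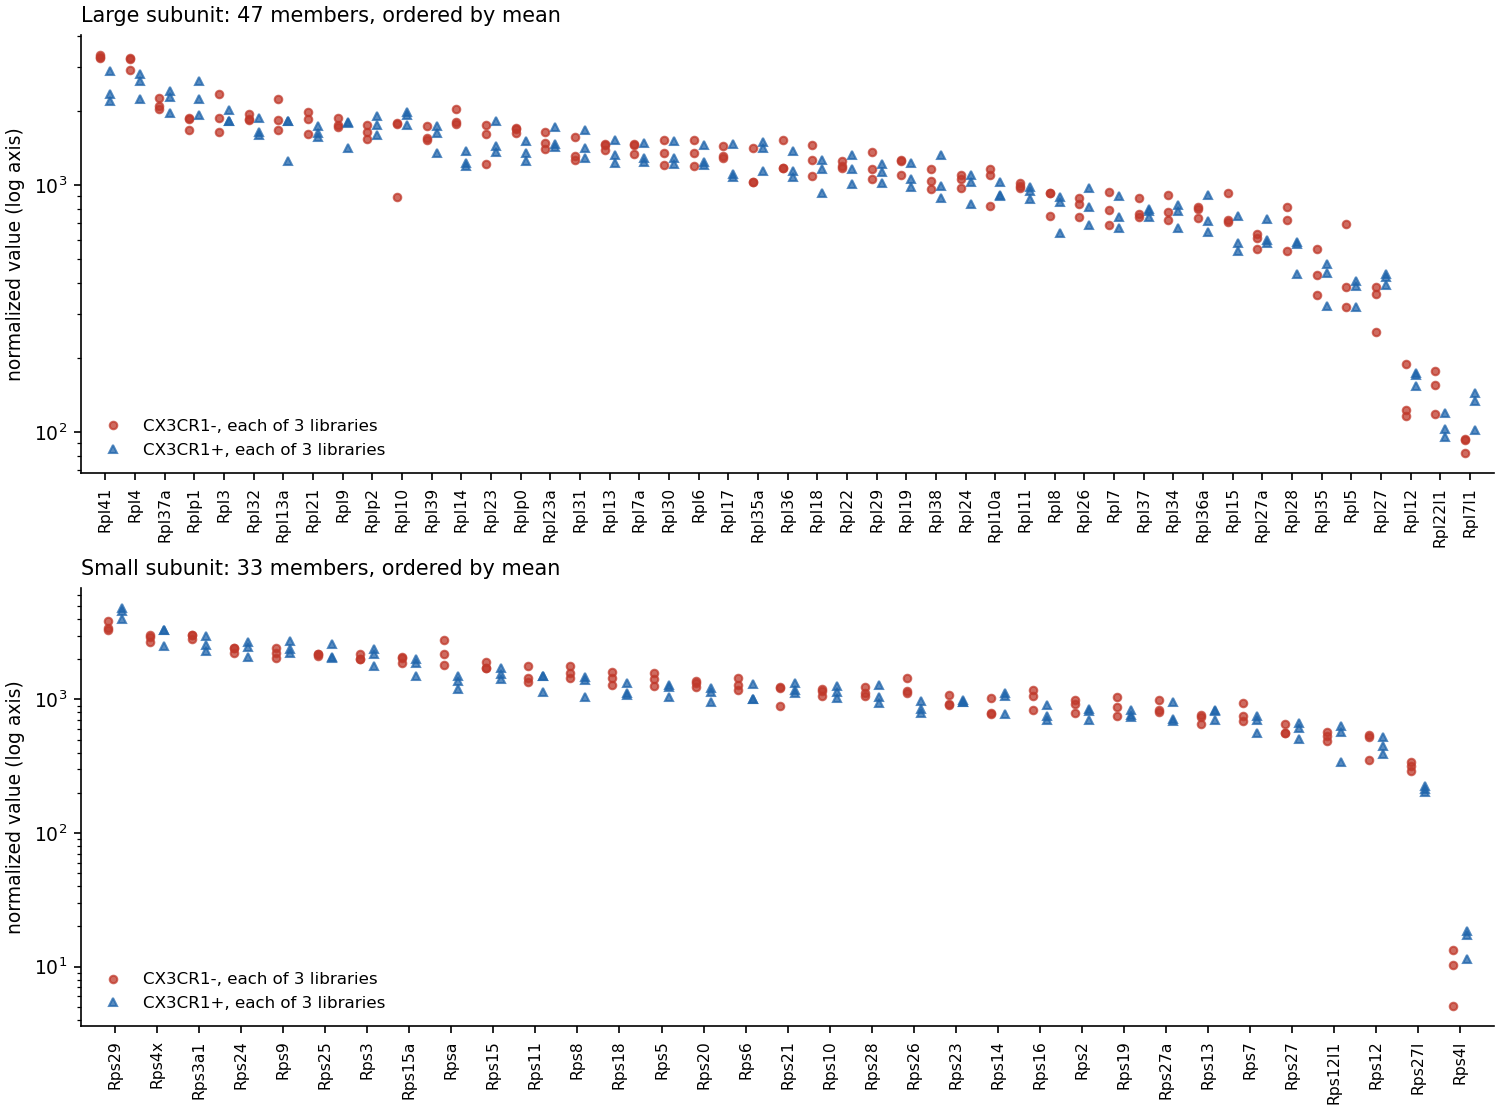
Normalized value (log axis) in each of the 6 libraries, for 47 of the 48 60S members (top) and 33 of the 34 40S members (bottom), ordered by mean. Circles are CX3CR1- and triangles CX3CR1+ libraries. The symbols intermix for most members. They separate with CX3CR1- above for 9 members, among them Rpsa, Rpl14, Rps26 and Rps27l. For 4 members, Rps29, Rplp1, Rpl7l1 and Rpl27, they separate with CX3CR1- below. In Rpl10, 1 CX3CR1- library lies apart at 896.

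**Figure D2:**
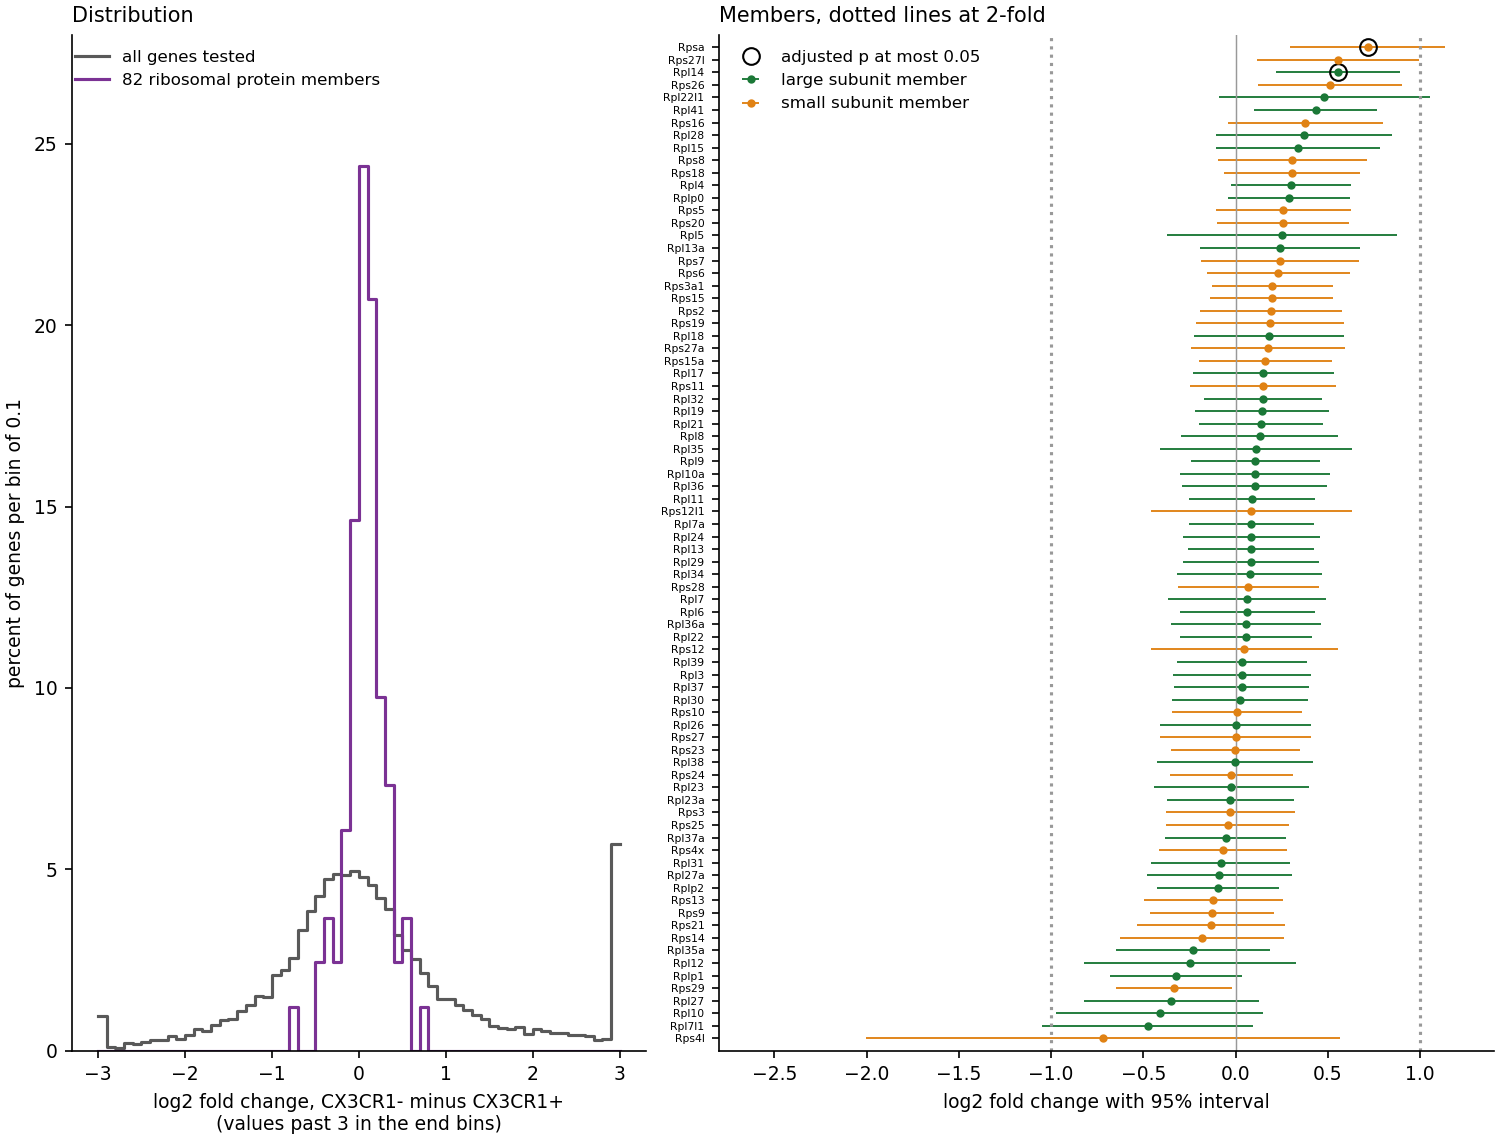
Left, percent of genes per bin of 0.1 of the log2 fold change, for all genes tested and for the 82 members, with values past 3 in the end bins. Right, the log2 fold change of 80 members (CX3CR1- minus CX3CR1+) with its 95% interval, coloured by subunit; rings mark the 2 called members, Rpsa at 0.72 and Rpl14 at 0.56, and dotted lines mark 2-fold.

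Rpsa encodes a 40S protein also known as the laminin receptor precursor. Its normalized value was 1796, 2200 and 2772 in the CX3CR1- libraries and 1384, 1496 and 1190 in the CX3CR1+ libraries. The populations did not overlap, and CX3CR1- replicate 3 was the highest library. The log2 fold change was 0.72 (standard error 0.19), a 1.64-fold difference, with an adjusted p of 0.0192 in limma. Rpsa (chr9:120127689-120132369 in GRCm38, plus strand) shares 34.6% of its 31-base words with other genes, mostly Rpsa-ps10, but held 99.6% of the summed value of Rpsa and its listed copies in CX3CR1- and 99.8% in CX3CR1+ libraries.

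Rpl14 encodes a 60S protein and lies on the same chromosome (chr9:120571444-120574654 in GRCm38, plus strand). It was at 1757, 1798 and 2024 in CX3CR1- and at 1228, 1372 and 1195 in CX3CR1+ libraries, again without overlap. Its log2 fold change was 0.56 (standard error 0.15) with an adjusted p of 0.0217 in limma, a 1.47-fold difference. Rpl14 shares 54.3% of its 31-base words with Rpl14-ps1, and it held 96.4% of their summed value in CX3CR1- against 87.7% in CX3CR1+ libraries. When both were summed, an alternative added after the data were seen, the log2 fold change became 0.42 with an adjusted p of 0.0659 in limma. Without CX3CR1- replicate 3, CX3CR1+ replicate 1 or CX3CR1+ replicate 3 neither gene passed, with an adjusted p in limma of 0.0531, 0.0533 and 0.0834 for Rpsa and 0.0503, 0.0775 and 0.0849 for Rpl14. Without an intensity trend in the variance the adjusted p in limma was 0.107 for Rpsa and 0.128 for Rpl14, and 0 members were called.

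Another 4 members had an unadjusted p of at most 0.05 without passing the adjusted threshold. Rps26, a 40S protein next to the exit of the mRNA, was at 1156, 1452 and 1121 in CX3CR1- and 842, 978 and 788 in CX3CR1+ libraries, and did not overlap (log2 fold change 0.51, standard error 0.18, adjusted p = 0.0592 in limma), and it was called when genes with a mean under 50 were left out. Rpl41, which encodes the smallest ribosomal protein, was at 3369, 3277 and 3305 against 2339, 2901 and 2181, again without overlap (log2 fold change 0.43, standard error 0.15, adjusted p = 0.0621 in limma). Rps29, a small zinc-binding 40S protein, was the only one of the 4 with lower values in CX3CR1- cells, at 3328, 3449 and 3853 against 4585, 4847 and 3973 (log2 fold change -0.33, standard error 0.14, adjusted p = 0.120 in limma). Rps29 was also the most abundant member per length of transcript, at a mean of 10272 per kb, and Rpl41 was at 5499 per kb. The remaining one, Rps27l, is given together with its parent Rps27.

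The stalk of the 60S subunit recruits the elongation factors and is made of Rplp0, the acidic proteins Rplp1 and Rplp2, and Rpl12 at its base. None of these 4 was called, and they did not share a direction. Rplp0 was at 1618, 1685 and 1707 in CX3CR1- and 1349, 1505 and 1250 in CX3CR1+ libraries, without overlap (log2 fold change 0.29, standard error 0.15, adjusted p = 0.194 in limma). Rplp1 also did not overlap, but with the opposite sign, at 1849, 1863 and 1671 against 2238, 2636 and 1911 (log2 fold change -0.32, standard error 0.16, adjusted p = 0.186 in limma). For Rplp2 the log2 fold change was -0.09 and for Rpl12 it was -0.25, with overlapping libraries in both. Rpl12 was the third lowest member per length, at 124 per kb, and made up 10.7% in CX3CR1- and 12.6% in CX3CR1+ libraries of its sum with Gm10275, in which 49.8% of the 31-base words of Rpl12 recur.

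Rpl5 and Rpl11 bind the 5S rRNA and, when free of the ribosome, also MDM2. Rpl11 was at 986, 972 and 1020 against 946, 981 and 876 (log2 fold change 0.09). Rpl5 was at 322, 388 and 693 in CX3CR1- and 322, 389 and 407 in CX3CR1+ libraries (log2 fold change 0.25, standard error 0.28), and among the 3 members with the largest spread between CX3CR1- libraries. CX3CR1- replicate 3 stood above the rest for Rpl5, but the sum of Rpl5 with Rpl5-ps2 and Gm15500, in which 44.7% of the 31-base words of Rpl5 recur, was 3308, 3533 and 3754 against 3243, 3554 and 2920. Rpl5 itself held 13.0% of that sum in CX3CR1- and 11.6% in CX3CR1+ libraries. The division of reads between these genes was not tested.

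Rpl10, which completes the late 60S particle at the peptidyl transferase centre, was at 1765, 1785 and 896 in CX3CR1- and 1978, 1919 and 1753 in CX3CR1+ libraries, and the value of 896 in CX3CR1- replicate 3 gave it one of the 3 largest spreads of that population. Summed with its 4 listed Rpl10-ps copies the values were 3436, 4087 and 3461 against 4579, 4570 and 3875. Rpl10 shares 75.8% of its 31-base words with Rpl10-ps3. The log2 fold change was -0.41 (adjusted p = 0.277 in limma) for Rpl10 alone, -0.084 without CX3CR1- replicate 3, and -0.25 for the sum. The third of these members was Rps4l.

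Reads are shared with copies throughout the family. All 82 members have at least 1 of their 31-base words in another annotated gene, the median share is 44.5% and 29 members share at least 50%. Of those 29 members 1 was called and of the other 53 also 1. Where members were summed with their listed copies, which 61 of the 82 had, only Rpsa was called, and the median log2 fold change was 0.08. The other 21 were left unsummed, among them Rps4x, which shares 78.4% of its words with other genes. Sums of the 91 listed -ps symbols together with Rps27rt and Rpl37rt, copies of Rps27 and Rpl37, were 18137 ± 735 in CX3CR1- and 17625 ± 1855 in CX3CR1+ libraries (SD, n = 3 each).

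Rps27a, the 40S protein made as a fusion with ubiquitin, was at 811, 839 and 996 against 686, 954 and 718 (log2 fold change 0.18). Fau, which fuses a 40S protein to a ubiquitin-like domain and is named outside the symbol rule, was at 1063, 1653 and 1095 against 1350, 1347 and 1152 (log2 fold change -0.04). Rack1, the signalling scaffold of the 40S head and also outside the rule, was at 1121, 1306 and 1709 against 1229, 1067 and 1036 (log2 fold change 0.29, adjusted p = 0.304 in limma). The populations overlapped for these 3 genes and none was called.

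Rps6, Rps19, Rpl13a, Rpl10a and Rpl38, which are known for roles in signalling, disease or selective translation, were not called. Rps6, the classical substrate of the S6 kinases, was at 1277, 1168 and 1436 against 1012, 1304 and 1000 (log2 fold change 0.23, 95% interval -0.15 to 0.62). Rps19, mutated most often in Diamond-Blackfan anaemia, had a log2 fold change of 0.19 (95% interval -0.22 to 0.59). Rpl13a, a part of the GAIT complex that silences inflammatory mRNAs in myeloid cells, had one of 0.24 (95% interval -0.19 to 0.68). For Rpl10a, a protein of the L1 stalk, it was 0.11 (95% interval -0.30 to 0.51), and for Rpl38, whose loss alters the translation of Hox mRNAs, it was -0.0007 (95% interval -0.42 to 0.42). All 20 members mutated in Diamond-Blackfan anaemia were tested and 0 were called, against 24.3% of all genes. Their median log2 fold change was 0.08, and Rps26 and Rps29 were the 2 with an unadjusted p of at most 0.05 in limma.

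Further members among the 8 smallest p-values in each direction were Rpl4, Rps16, Rpl27 and Rpl35a, none of them called. Rpl4, which lines the exit tunnel, was at 2931, 3273 and 3239 against 2631, 2818 and 2236 without overlap (log2 fold change 0.30, adjusted p = 0.172 in limma). For Rps16, a 40S head protein, the log2 fold change was 0.38. Rpl27 was at 255, 362 and 385 against 424, 437 and 395, also without overlap (log2 fold change -0.35), but it had a log2 fold change of 0.02 once summed with its 2 listed -ps copies. Rpl35a had a log2 fold change of -0.23. The 9 members of the exit tunnel had a median of 0.05 with 0 called, and the 7 listed members along the mRNA channel of the 40S subunit one of 0.19 with Rpsa called.

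Paralogs were compared with their parents inside each library, as log2 of the ratio of value + 1, where the scaling between libraries nearly cancels, and 7 pairs were compared. With 3 against 3 libraries the exact two-sided permutation test cannot go below 0.1, so no pair could pass a threshold of 0.05. Rps27l, a paralog of Rps27 that p53 is known to induce, was at 319, 339 and 291 in CX3CR1- and 213, 225 and 204 in CX3CR1+ libraries, with no overlap (log2 fold change 0.56, standard error 0.20, adjusted p = 0.0664 in limma). Its parent Rps27 was at 564, 659 and 561 against 616, 667 and 508 (log2 fold change 0.0002). The log2 ratio of Rps27l to Rps27 was -0.82, -0.96 and -0.95 in CX3CR1- and -1.52, -1.56 and -1.31 in CX3CR1+ libraries, a difference of 0.56 with an exact permutation p of 0.1, the smallest possible. Rps27l shares 22.9% of its 31-base words with other genes. Rps27rt, a copy of Rps27 outside the symbol rule that shares 92.7% of its own words with other genes, held 84.8% of the sum of both in CX3CR1- and 83.8% in CX3CR1+ libraries.

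Rpl7l1, a relative of Rpl7 known from pre-ribosomes, did not pass the test. It was at 82.4, 93.0 and 93.7 in CX3CR1- and 144, 133 and 102 in CX3CR1+ libraries (log2 fold change -0.48, standard error 0.26, adjusted p = 0.218 in limma). Its log2 ratio to Rpl7 was -3.04, -3.08 and -3.31 against -2.35, -2.75 and -2.70, without overlap and with an exact permutation p of 0.1. Rpl7 itself had a log2 fold change of 0.065. Rpl22l1, the paralog of the RNA-binding protein Rpl22, was at 155, 118 and 176 against 95.6, 119 and 103 (log2 fold change 0.48, standard error 0.26, adjusted p = 0.213 in limma), and Rpl22 had a log2 fold change of 0.05. The ratio of Rpl22l1 to Rpl22 differed by 0.43 with an exact permutation p of 0.2, and CX3CR1- replicate 2 fell between the CX3CR1+ libraries.

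Rpl36al, a paralog of Rpl36a outside the symbol rule, was at 1016, 995 and 941 against 811, 809 and 710 (log2 fold change 0.34, adjusted p = 0.151 in limma). Its ratio to Rpl36a differed by 0.29 without overlap (exact permutation p = 0.1), and Rpl36a had a log2 fold change of 0.06. For Rps27rt against Rps27 the ratio differed by 0.11 with overlap. Rps12l1, annotated as a processed pseudogene, shares 100% of its 31-base words with Rps12, and their ratio differed by 0.04 with an exact permutation p of 0.9. Their log2 fold changes were 0.09 for Rps12l1 and 0.05 for Rps12. Rps4l, a transcribed processed pseudogene of Rps4x, was the lowest member with 13.2, 5.09 and 10.4 against 18.4, 17.1 and 11.4, and Rps4x had a log2 fold change of -0.07. The ratio of Rps4l to Rps4x differed by -0.65 with an exact permutation p of 0.2. Per length of transcript, Rps4l at 14.6 and Rpl7l1 at 82.5 per kb were the 2 lowest members.

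**Figure D3:**
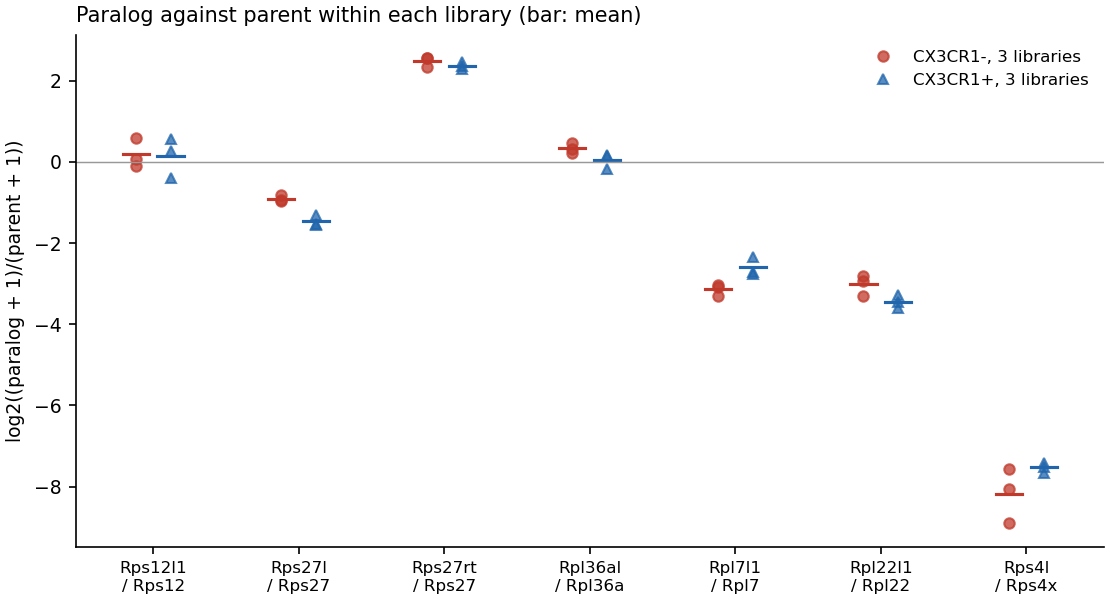
Log2 ratio of each paralog to its parent in each library, with the mean of each population as a bar, for the 7 pairs. The 3 CX3CR1- libraries lie above all CX3CR1+ libraries for Rps27l and Rpl36al and below them for Rpl7l1, and the populations overlap for the other 4 pairs.

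Members were also compared with each other inside each library. When each library was centred on its own median member, 12 members lay higher and 14 lower in all 3 CX3CR1- than in all 3 CX3CR1+ libraries, which is 26 of 82 (31.7%) against 39.7% of all genes. The share was 16 of 34 among 40S and 10 of 48 among 60S members, and a difference between the subunits was not tested. Refitted on this scale, an alternative added after the data were seen, limma called Rpsa at a log2 fold change of 0.60 and Rps29 at -0.45, with adjusted p-values of 0.0353 and 0.0441, and no longer called Rpl14. CX3CR1+ replicate 3 had the lowest value of the 6 libraries in 53 of 82 members and the highest in 0. Its median member lay 0.22 below the mean of the libraries on the log2 scale, while the other 5 libraries lay between -0.05 and 0.13.

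Replicates of one population agreed closely for these genes. The median SD of log2 values was 0.14 among CX3CR1- and 0.18 among CX3CR1+ libraries, against 0.47 and 0.30 over all genes tested. For the 3228 other genes of the same expression range it was 0.27 and 0.18. The CX3CR1- libraries were thus the more variable ones for all genes and for genes of like level, but the members varied more among CX3CR1+ libraries in 50 of 82 cases.

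As a share of RNA, the members depended on what they were divided by. They summed to 111150 ± 5588 in CX3CR1- and 105186 ± 11595 in CX3CR1+ libraries (SD, n = 3 each). Of the total without mitochondrially encoded genes they held 1.87, 1.90 and 2.09% in CX3CR1- and 1.65, 1.76 and 1.505% in CX3CR1+ libraries, without overlap. Of the total of all genes they held 0.844, 0.996 and 0.994% against 1.30, 1.42 and 1.23%, also without overlap but in the opposite direction. The ratio of the CX3CR1- to the CX3CR1+ mean was 1.19 for the first share, 0.718 for the second and 1.06 for the sum on the deposited scale, so the direction of the members as a group depends on the scale.

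The scale also changes how many members are called. Scaling each library to the same total without mitochondrial genes moved the median of all genes to 0.16 and that of the members to 0.26, and the 7 members called were all higher in CX3CR1- cells, which added Rps26, Rpl41, Rps27l, Rpl4 and Rplp0 to Rpsa and Rpl14. Quantile normalization moved the median of all genes to -0.15 and that of the members to 0.43, and 29 of 82 members were called higher and 0 lower, 1 of them past 2-fold. Members that did not overlap numbered 39 with equal totals, against 39.8% of all genes, and 64 after quantile normalization, against 40.9%. Relative to the median of all genes, the members lay at 0.09 in the reported fit, 0.09 with equal totals and 0.58 after quantile normalization. Rpsa and Rpl14 were higher in CX3CR1- cells under each of these 3 scalings. The number of members with a positive fold change was 57 as reported, 72 with equal totals and 77 after quantile normalization. On the deposited scale with 1 library left out, it ranged from 42 without CX3CR1+ replicate 3 to 67 without CX3CR1+ replicate 2. Without CX3CR1+ replicate 3 the median of the members was 0.01, beside 0.005 over all genes. Among the members named with values, Rps29, Rplp1, Rplp2, Rpl35a, Rpl38 and Rps4x turned positive after quantile normalization, and Rplp2, Rpl38 and Rps4x also with equal totals, without a call.

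**Figure D4:**
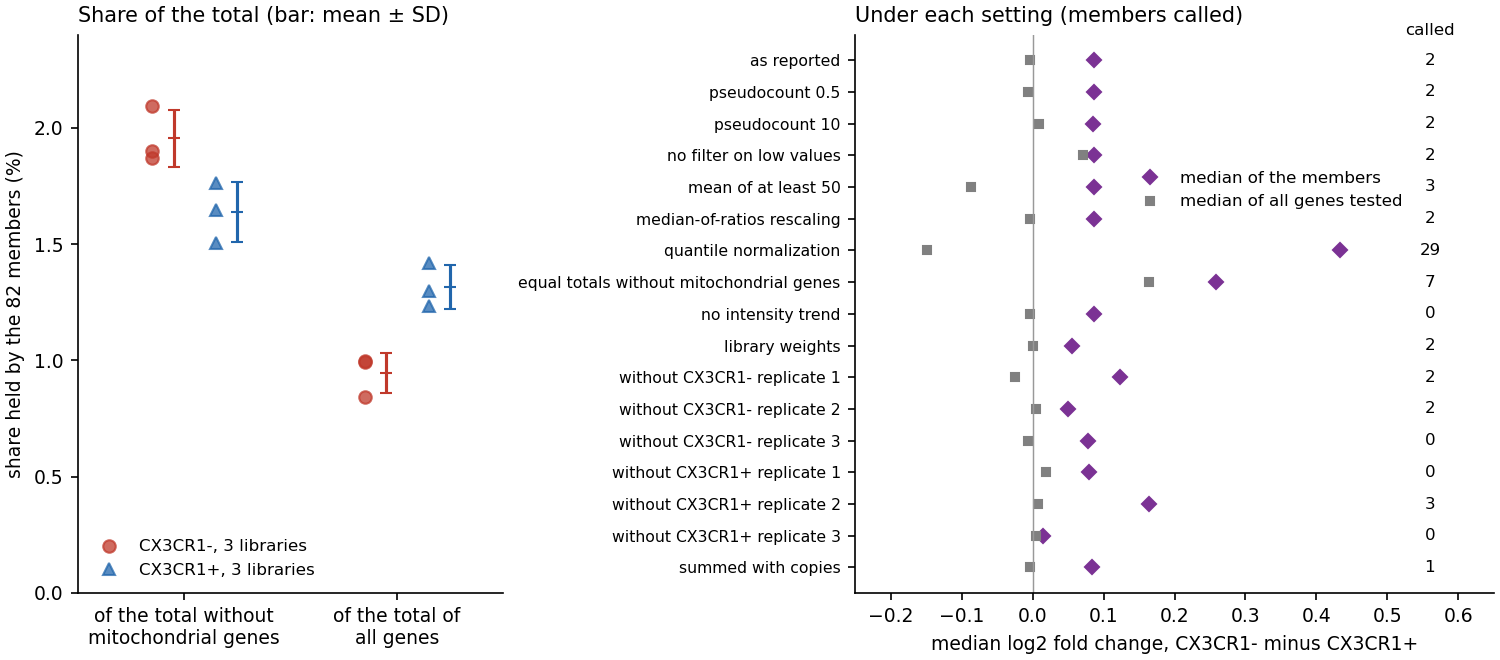
Left, share of the normalized total held by the 82 members in each library, with the mean and SD of each population, for a total without and with mitochondrially encoded genes; the order of the populations turns between the 2 totals. Right, median log2 fold change of the members and of all genes tested under each setting, with the number of members called; quantile normalization stands apart with 29 calls.

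Other genes of translation and ribosome production were counted by list beside the 24.3% of all genes called, and no list was tested as a set. Of 24 other genes with TOP mRNAs, 2 were called higher and 0 lower, with a median log2 fold change of 0.12. These were Eif3l, a subunit of the initiation factor eIF3, at 0.84 (adjusted p = 0.0291 in limma) and Eef1b2, an exchange factor for eEF1A, at 0.61 (adjusted p = 0.0373 in limma). Eef1b2 was at 1030, 1203 and 1301 in CX3CR1- and 758, 919 and 654 in CX3CR1+ libraries, without overlap. This list includes Rack1 and Fau.

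Of 40 initiation factors, 2 were called higher and 5 lower, with a median of -0.10. Eif6, which keeps free 60S subunits from joining, was at 331, 387 and 367 against 150, 204 and 129, without overlap, at 1.18 on the log2 scale (adjusted p = 0.00435 in limma). Eif1a, a scanning factor, was at 574, 582 and 527 against 947, 1345 and 1050, also without overlap, at -0.97 on the log2 scale (adjusted p = 0.00333 in limma). Eif5, the GTPase activator of eIF2, had one of -0.70 (adjusted p = 0.0065 in limma). Of 10 elongation and termination factors tested, 1 was called higher, Eef1b2, and 2 lower. The release factor Etf1 was at 569, 789 and 518 against 1443, 1698 and 1245 (log2 fold change -1.24, adjusted p = 0.00166 in limma), and Eef2k, the kinase of eEF2, lay at -1.45 on the log2 scale (adjusted p = 0.0441 in limma).

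Of 72 ribosome biogenesis factors, 0 were called higher and 7 lower, with a median log2 fold change of -0.27. Utp15, a part of the small subunit processome, was at 106, 72.1 and 80.4 against 247, 332 and 284 (log2 fold change -1.74, adjusted p = 0.000681 in limma). Gnl3, the nucleolar GTPase nucleostemin, was at 152, 357 and 227 against 580, 761 and 651 (log2 fold change -1.51, adjusted p = 0.00398 in limma). Of 14 genes of RNA polymerase I and its factors, the largest subunit Polr1a was higher at 1.67 (adjusted p = 0.0017 in limma) and Cd3eap, another subunit, lower at -1.03 (adjusted p = 0.0407 in limma). Of 18 transcription factors with reported roles at ribosomal protein genes, 0 were higher and 3 lower, with a median of -0.23. Yy1, whose motif is counted above, was at 294, 284 and 245 against 430, 407 and 425 (log2 fold change -0.62, adjusted p = 0.0366 in limma), and E2f1 lay at -1.15 on the log2 scale (adjusted p = 0.0168 in limma).

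Of 28 tested genes of translational control by mTORC1 and the integrated stress response, 2 were called higher and 1 lower, with a median of 0.03. Pdcd4, an inhibitor of the helicase eIF4A, lay at 1.04 on the log2 scale (adjusted p = 0.00491 in limma). Of the sestrins, which restrain mTORC1, Sesn3 lay at 0.55 (adjusted p = 0.0461 in limma) and Sesn1 at -1.52 (adjusted p = 0.0011 in limma).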

How the data were processed

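RNA of MHCIIhi CX3CR1- and CX3CR1+ ME cells was measured in 3 libraries each, mapped to their population by the labels. The authors pseudoaligned 75 bp single reads with kallisto to GENCODE transcripts (mm10, which is GRCm38), summed them per gene with tximport and normalized them with DESeq2 (version given in the study's methods, that of kallisto not given in the sources used here); what was deposited is this normalized signal per gene. A count test was not run, since only 41.0 to 42.7% of values above 0 were whole multiples of a library's smallest step (tolerance 0.001). Pseudoalignment divides reads shared by near-identical genes by estimate.

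Genes with a mean of at least 10 were fitted with limma 3.58.1 (R 4.3.3) as log2(value + 1), with an intensity trend, two-sided, on all 6 libraries without covariates. Fold changes on this scale understate changes of low genes. Adjustment was Benjamini-Hochberg over 17812 genes, and the fit was tested on simulated data. Group values are mean ± SD. Listed copies of a member were its -ps symbols and the annotated gene sharing most of its sequence. That gene was added only where it was listed and not itself a member, and other listed genes with shared sequence were left out. Sharing was counted as 31-base words of GENCODE M21 transcripts, the source of gene coordinates too. Promoters were matched by symbol to RefSeq (GRCm38.p6). Python 3.11.15, SciPy 1.17.1 and matplotlib 3.10.9 were used. Named were the paralogs with parents, stalk and 5S proteins, some with known other roles, the 8 smallest p per direction, extremes of level and spread, and at most 2 called genes per direction of each other list. A few genes that this rule names are counted in all totals but not reported here by name or drawn singly. The members and lists were chosen with earlier results of these data known. Alternatives covered pseudocount, filter, scaling, variance prior, library weights and leaving out each library.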

Additional observations from a re-analysis of the deposited data

How the results depend on the processing

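Settings changed the number of members called, 2 as reported, more than the direction of the called members. After quantile normalization 29 members were called, 1 of them past 2-fold, the median log2 fold change was 0.43 and 64 members did not overlap (40.9% of all genes), and with equal totals without mitochondrial genes these were 7 called, a median of 0.26 and 39 (39.8%). Without an intensity trend 0 members were called, and 18 of 298 genes on the other lists of the pathway in place of 36. Of all genes, 20.0% were called without the trend and 24.3% with it. Summing members with their copies gave 1 called member, and centring on the median member gave 26 that do not overlap in place of 13, both chosen after seeing the data. Leaving out 1 library in turn gave 0 to 3 called members and a median of 0.01 to 0.16. In these fits 15 to 31 members did not overlap, against 45.6 to 52.5% of all genes. The same fits called 16 to 39 genes on the other lists, against 16.7 to 25.8% of all genes, and have fewer samples. With all genes as the denominator the difference in share was -0.371 percentage points in place of 0.317, and without 1 library 0.248 to 0.379. Rpsa and Rpl14 kept their direction in all 16 alternatives tried for single genes. Since the populations did not overlap for either gene, leaving out a library could not turn that direction. Nor could another pseudocount, filter, variance prior or library weights, so only the rescalings and the sum with copies could have done so. None of the 34 values with another sign was called.

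The signs that turned included these log2 fold changes. With equal totals they were 0.13 for Fau, 0.17 for Rpl38, 0.078 for Rplp2 and 0.10 for Rps4x. After quantile normalization they were 0.31 for Fau, 0.12 for Rpl35a, 0.34 for Rpl38, 0.11 for Rplp1, 0.32 for Rplp2, 0.10 for Rps29 and 0.40 for Rps4x. With library weights they were -0.015 for Rps12 and -0.039 for Rps27. Summed with copies they were -0.043 for Rpl11, 0.021 for Rpl27, 0.067 for Rpl38 and -0.10 for Rps12. Without 1 library the range was -0.25 to 0.073 for Fau, -0.041 to 0.15 for Rpl22, -0.053 to 0.20 for Rpl36a, -0.13 to 0.17 for Rpl38, -0.070 to 0.48 for Rpl5, -0.052 to 0.18 for Rpl7, -0.065 to 0.25 for Rps12, -0.19 to 0.26 for Rps12l1 and -0.11 to 0.085 for Rps27, and -0.23 to 0.25 for the ratio of Rps12l1 to Rps12. The cause of these turns was not tested. No paired analysis was run, because the library numbers in the labels are not shared between the populations and the labels tie no library of one to a library of the other. In the labels, the number of each library is next to that of a library of the other population. Whether libraries with neighbouring numbers, or any libraries of both populations, came from the same sort is not given in the sources used here. Among the members, only Rps4l lay near the counting floor. Whether counting depth widened the intervals of the next lowest members, such as Rpl22l1 and Rpl7l1, was not tested.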

Other observations

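Of 78 mitochondrial ribosomal protein genes, encoded in the nucleus and translated by the cytosolic ribosome, 2 were called higher and 0 lower in CX3CR1- cells (limma, adjusted p of at most 0.05), with a median log2 fold change of 0.20. The share called was 2.56%, against 24.3% of all genes. Mrpl43 was at 99.1, 107 and 105 in CX3CR1- and 52.7, 45.1 and 29.7 in CX3CR1+ libraries, and Mrpl21 had a log2 fold change of 0.74. Of 16 tested host genes of small nucleolar RNAs, which guide the modification of rRNA, 3 were called higher and 2 lower. Here the share called was 31.25%, against 24.3% of all genes. Snhg1 had a log2 fold change of 1.22 and Zfas1 one of 1.01, while Snhg15 had one of -1.59 and Snhg14 one of -0.89.

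Of 13 genes of p53 and ribosomal stress, 0 were called higher and 5 lower in CX3CR1- cells, with a median log2 fold change of -0.27. The share called was 38.5%, against 24.3% of all genes, of which 11.0% were called lower. Mdm2 was at 852, 661 and 837 in CX3CR1- and 1704, 1747 and 1705 in CX3CR1+ libraries, and Cdkn1a was at 3161, 3084 and 1951 against 7738, 6713 and 6123. Rps27l, the ribosomal protein paralog that p53 is known to induce, was not called, and its values in CX3CR1- cells lay above those in CX3CR1+ cells, as given above.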
